A study of Macaca mulatta with 20 samples.

Results

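Collagens are the main proteins of the extracellular matrix, and the collagen genes were read here in 5 rhesus macaque RNA sources. A gene was taken as a member when its single symbol in the array annotation was COL, a number, A and a number, as in COL1A1. This gave 43 genes of 21951 with a single symbol on either array type, of which 35 were read on rhesus arrays and all 43 on human arrays. The 35 genes on both array types stand against 11956 genes on both in all. COL4A1, COL4A2, COL5A1, COL6A5, COL6A6, COL8A1, COL22A1 and COL23A1 were read on human arrays alone. The members fell into 11 fibrillar, 6 basement membrane, 5 beaded filament, 10 fibril-associated, 3 network, 3 transmembrane and 2 multiplexin genes, 1 anchoring fibril gene and 2 others. They were held by 60 rhesus and 112 human probe sets, and a gene was read at its brightest probe set.

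The sources were a line of immortalized fibroblasts, the matrix-making cells of connective tissue in a form that keeps growing in a dish, and testis, pancreas, thymus and cerebral cortex of rhesus macaques. RNA of each source was labelled and hybridized to 2 Rhesus Macaque Genome Arrays, whose probes follow rhesus transcripts, and to 2 Human Genome U133 Plus 2.0 arrays, whose probes follow human transcripts and can mismatch rhesus RNA. Neither treatment nor genotype, nor the age or number of the animals, is named in the labels. The 20 arrays are technical replicates, so p-values cover the spread among arrays of 5 RNA preparations and say nothing of the spread among animals. Values are deposited log2 expression values. A limma model was fitted per array type over all probe sets except controls, with a contrast of each source minus the mean of the other 4. A difference was called when its Benjamini-Hochberg adjusted p fell under 0.05 and its size reached 1 on the log2 scale. Control probe sets for bacterial RNA absent from the spike-in mix averaged at most 3.56 in any source on rhesus arrays and 3.22 on human arrays, and a level at or below these values is called near the floor. Where 1 side of a comparison lay near the floor, the log2 difference is not an exact fold.

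Collagen chains wind into a triple helix of alpha chains, and each different chain of a collagen type is encoded by its own gene. Fibrillar collagens form the cables of connective tissue, type IV collagen forms the sheet of basement membranes, and beaded filament, anchoring and fibril-associated collagens join these structures to each other and to cells. Fibroblasts and smooth muscle cells are known for fibrillar collagens, epithelia, endothelia and Sertoli cells for basement membrane collagens, while the parenchyma of the brain holds little collagen outside its vessels and meninges.

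Collagen genes were called most often in fibroblasts and testis, where calls were mostly higher, and in cerebral cortex and thymus, where they were mostly lower. In fibroblasts 12 of 35 were higher on both array types (34.3%), against 11.2% of all genes on both, and 3 of 35 were lower (8.57%), against 7.4%. In testis 13 of 35 were higher (37.1%), against 8.31% of all genes, and COL11A1 alone was lower, against 5.03%. Cerebral cortex had 11 of 35 lower (31.4%), against 10.3%, and only COL11A1 and COL24A1 higher, against 10.2%. Thymus had 11 of 35 lower (31.4%), against 9.85%, and 0 of 35 higher, against 9.58%. Pancreas had 3 of 35 higher (8.57%), which were COL1A2, COL6A3 and COL9A1, against 3.92%, and 6 of 35 lower (17.1%), against 12.5%.

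A low call can come from 1 high source in the mean, and a high call need not mark the highest source. Genes were therefore also counted where a source stood above every other one. Standing below each other source was not counted, so the low calls were not checked in this way. Fibroblasts stood above each of the other 4 sources on both array types for 9 of 35 genes, which were COL1A2, COL6A1, COL6A2, COL6A3, COL7A1, COL11A1, COL12A1, COL16A1 and COL21A1, against 4.55% of all genes. Testis did so for COL2A1, COL4A5 and COL4A6, against 1.97%, and cerebral cortex for COL24A1, against 5.45%. Pancreas and thymus did so for 0 of 35, against 1.67% and 3.31%. These counts come from bulk RNA, in which fewer cells of a type and less RNA per cell cannot be told apart.

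Type I collagen, the main fibrillar collagen of skin, bone and tendon, is made of the chains of COL1A1 and COL1A2. On rhesus arrays COL1A2 read 14.87 and 14.97 in fibroblasts, against 13.53 and 13.62 in testis, 12.06 and 12.14 in pancreas, 9.85 and 9.78 in thymus and 5.68 and 5.80 in cortex. On human arrays it read 14.84 and 14.93 in fibroblasts, against 13.29 and 13.26 in testis, 11.89 and 12.06 in pancreas, 9.45 and 9.35 in thymus and 6.06 and 6.22 in cortex. The sources kept 1 order on both array types, with fibroblasts first, then testis, pancreas, thymus and cortex, and no arrays of different sources overlapped. In fibroblasts it was higher than in the other 4 by 4.61 (standard error 0.0524, adjusted p = 1.97e-08) on rhesus arrays and by 4.69 (standard error 0.0635, adjusted p = 1.29e-07) on human arrays. In cortex the differences were -6.86 and -6.24, while testis was higher by 2.93 and 2.68.

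COL1A1 on rhesus arrays read 13.93 and 13.89 in fibroblasts, against 12.10 and 12.07 in testis, 9.65 and 9.55 in pancreas, 7.83 and 7.97 in thymus and 2.31 and 2.29 in cortex. The human values were 13.76 and 13.25 in fibroblasts, against 13.44 and 13.41 in testis, 12.92 and 12.88 in pancreas, 10.78 and 10.56 in thymus and 3.88 and 4.12 in cortex. The gene was high in fibroblasts and testis and lowest in cortex on both array types, but the human probe set read fibroblasts, testis and pancreas alike, and none of these 3 was called above another there. The rhesus difference was 5.94 (standard error 0.047, adjusted p = 6.09e-09) for fibroblasts and 3.66 for testis, and the human ones were 3.25 and 3.16. At the next brightest of its 5 human probe sets the means were 14.30 in fibroblasts, 12.66 in testis, 10.38 in pancreas, 8.43 in thymus and 2.54 in cortex.

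COL3A1 encodes type III collagen, which accompanies type I in extensible tissue. Its single rhesus probe set read 7.95 and 8.22 in fibroblasts, against 4.72 and 4.83 in testis, 5.50 and 5.07 in pancreas, 3.66 and 3.90 in thymus and 3.88 and 3.65 in cortex. The brightest human probe set read 15.13 and 14.94 in fibroblasts, against 13.77 and 13.85 in testis, 12.60 and 12.61 in pancreas, 10.82 and 10.90 in thymus and 5.25 and 3.56 in cortex. Fibroblasts had the highest mean and were called higher on both array types, by 3.68 on rhesus and 4.61 on human arrays. On human arrays they were not called above testis, at a difference of 1.22 (adjusted p = 0.123). Testis differed between the array types, at -0.46 on rhesus arrays, which was not called, and 3.08 on human arrays, which was called, and the 2 cortex arrays of the human type lay far apart.

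Type V collagen starts the fibrils of type I, and its chains come from COL5A1, COL5A2 and COL5A3. COL5A1, on human arrays alone, read 9.49 and 9.43 in fibroblasts, against 8.23 and 8.15 in testis, 5.30 and 5.30 in pancreas, 4.11 and 3.95 in thymus and 3.73 and 4.07 in cortex, and fibroblasts were higher by 4.11 (standard error 0.0898, adjusted p = 8.36e-07). COL5A2 read 10.34 and 10.42 in fibroblasts, against 9.49 and 9.46 in testis, 8.07 and 8.06 in pancreas, 10.65 and 10.59 in thymus and 8.10 and 8.15 in cortex on rhesus arrays. On human arrays COL5A2 read 12.15 and 11.97 in fibroblasts, against 9.79 and 9.70 in testis, 7.83 and 8.12 in pancreas, 6.07 and 6.75 in thymus and 6.83 and 6.94 in cortex. Fibroblasts were called higher on both array types, by 1.31 and 4.31, but the rhesus call ended without the pancreas arrays, at 0.97, and thymus was the highest source on rhesus arrays and the lowest on human arrays. Of the 4 rhesus probe sets of COL5A2, the brightest and the dimmest had thymus means of 10.62 and 9.62, while the other 2 had thymus means of 6.31 and 6.05 and fibroblast means of 12.33 and 13.05. COL5A3 was called higher in cortex on rhesus arrays, at 6.00 and 6.02 against 4.16 in the mean of the other 4, and its brightest human probe set was not called in any source, while the second one was called higher in cortex as well, by 1.09.

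Of the fibrillar genes with other profiles, COL11A1, COL24A1 and COL2A1 each had a different leading source. COL11A1 encodes a chain of type XI collagen, a minor fibrillar collagen best known from cartilage. It read 9.55 and 9.62 in fibroblasts, against 6.89 and 6.84 in cortex, 3.87 and 3.99 in testis, 2.90 and 2.81 in pancreas and 2.62 and 2.58 in thymus on rhesus arrays, and 8.80 and 8.88 in fibroblasts, against 5.35 and 5.50 in cortex, 2.70 and 2.69 in testis, 2.45 and 2.46 in pancreas and 2.38 and 2.26 in thymus on human arrays. Fibroblasts were highest and cortex next on both array types, with fibroblasts higher than the other 4 by 5.53 (standard error 0.0445, adjusted p = 6.43e-09) and 5.62 (standard error 0.0496, adjusted p = 2.61e-08), and cortex by 2.12 and 1.34. The next brightest probe sets of COL11A1 were called higher in fibroblasts too, by 3.24 and 3.05, but not in cortex, at 0.13 and -0.14. The human cortex call of COL11A1 ended with the mean over its probe sets, at 0.44, and without the pancreas arrays, at 0.80. Pancreas and thymus lay near the floor on both array types, and testis did on human arrays.

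COL24A1, a fibrillar collagen gene known in mouse from developing bone and eye, read 6.61 and 7.05 in cortex, against 3.31 and 3.33 in fibroblasts, 4.70 and 5.21 in testis, 3.42 and 3.42 in pancreas and 3.03 and 3.04 in thymus on rhesus arrays. The human values were 7.11 and 6.76 in cortex, against 3.24 and 3.27 in fibroblasts, 5.85 and 5.59 in testis, 3.36 and 3.36 in pancreas and 3.22 and 3.20 in thymus. Cortex stood above every other source with no overlap, higher than the other 4 by 3.15 (standard error 0.154, adjusted p = 5.49e-06) and 3.05 (standard error 0.103, adjusted p = 3.31e-06), and testis came next on both array types. Fibroblasts, pancreas and thymus lay at or close to the floor, so their low calls do not set them apart from each other.

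COL2A1 encodes type II collagen, the main collagen of cartilage. It read 6.55 and 6.57 in testis, against 3.69 and 3.41 in fibroblasts, 3.49 and 3.39 in pancreas, 2.89 and 2.45 in thymus and 3.29 and 3.28 in cortex on rhesus arrays, and 5.59 and 5.42 in testis, against 2.34 and 2.35 in fibroblasts, 2.39 and 2.39 in pancreas, 2.37 and 2.36 in thymus and 2.31 and 2.38 in cortex on human arrays. Testis was the only source clearly above the floor, higher than the other 4 by 3.32 (standard error 0.12, adjusted p = 2.36e-06) and 3.14 (standard error 0.0442, adjusted p = 2.37e-07). Of the remaining fibrillar genes, COL11A2 was not called in any source on either array type. COL27A1 lay near the floor in all 5 sources on rhesus arrays and was not called at its brightest human probe set, but the third brightest was called higher in testis, by 1.36, and lower in cortex, at -1.41.

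**Figure D1:**
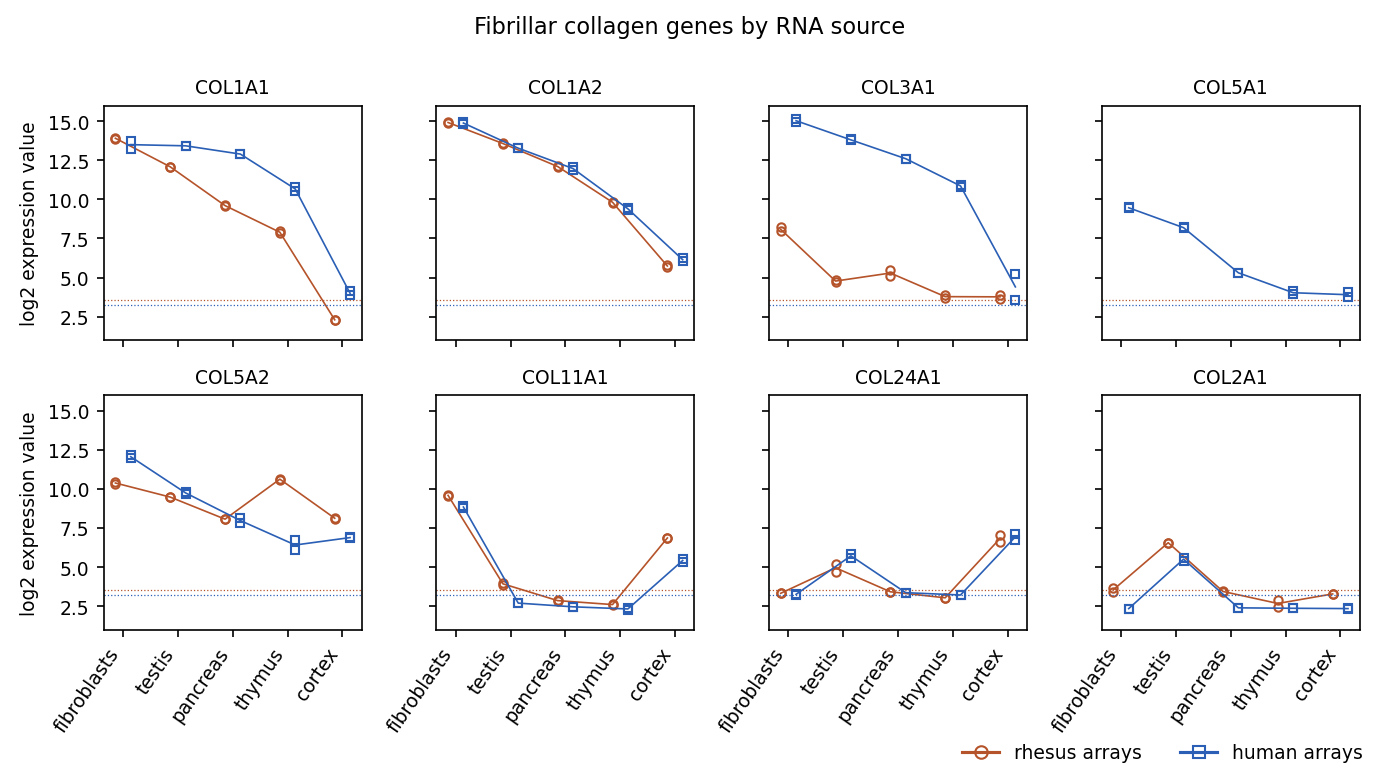
Log2 expression values of 8 fibrillar collagen genes (y axis) in the 5 sources (x axis), with 1 circle per rhesus array and 1 square per human array, lines through the means of 2 arrays and dotted lines at the floors of 3.56 (rhesus) and 3.22 (human). COL1A2 runs from 14.92 and 14.88 in fibroblasts down to 5.74 and 6.14 in cortex (rhesus and human means), whereas COL24A1 peaks in cortex and COL2A1 in testis, and COL5A1 has human values alone.

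COL4A3 aside, type IV collagen was led by fibroblasts in COL4A1 and COL4A2, on human arrays alone, and by testis in COL4A4, COL4A5 and COL4A6. Its 6 genes lie in pairs in the genome, and in the rhesus gene table of assembly T2T-MMU8v2.0 no protein-coding gene started between COL4A1 and COL4A2 or between COL4A3 and COL4A4, and 1 did between COL4A5 and COL4A6. The chains of COL4A1 and COL4A2 form the network found in nearly all basement membranes. On human arrays, where alone they were read, COL4A1 had 10.67 and 10.70 in fibroblasts, against 9.18 and 9.21 in testis, 9.18 and 8.98 in pancreas, 7.58 and 7.58 in thymus and 6.27 and 6.63 in cortex. COL4A2 had 10.98 and 10.98 in fibroblasts, against 10.24 and 10.31 in testis, 8.85 and 8.85 in pancreas, 6.96 and 6.53 in thymus and 7.27 and 6.92 in cortex. Both were highest in fibroblasts, higher than in the other 4 by 2.61 (standard error 0.0952, adjusted p = 6.55e-06) and 2.74 (standard error 0.128, adjusted p = 1.82e-05), and COL4A2 was called higher in testis too, by 1.86. For COL4A2 fibroblasts were not called above testis, at a difference of 0.71. Thymus and cortex had the lowest values of both genes, and were called lower for both.

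The chains of COL4A5 and COL4A6 form a network of specialised basement membranes, smooth muscle among them. COL4A5 read 10.56 and 10.55 in testis, against 6.05 and 6.08 in fibroblasts, 6.21 and 5.37 in pancreas, 4.59 and 4.57 in thymus and 6.01 and 5.81 in cortex on rhesus arrays, and 10.11 and 10.43 in testis, against 6.39 and 5.85 in fibroblasts, 5.55 and 6.16 in pancreas, 4.02 and 4.16 in thymus and 6.22 and 6.74 in cortex on human arrays. Testis stood far above all other arrays and thymus was lowest, while cortex, fibroblasts and pancreas were not called apart from each other. In testis COL4A5 was higher by 4.97 (standard error 0.197, adjusted p = 3.5e-06) and 4.63 (standard error 0.236, adjusted p = 3.92e-05). COL4A6 read 9.04 and 9.26 in testis, against 2.22 and 2.22 in fibroblasts, 2.27 and 2.24 in pancreas, 2.19 and 2.19 in thymus and 2.17 and 2.15 in cortex on rhesus arrays. The human arrays gave 7.92 and 8.00 in testis, against 2.07 and 2.08 in fibroblasts, 2.10 and 2.10 in pancreas, 2.06 and 2.05 in thymus and 2.06 and 2.06 in cortex. All 4 other sources lay near the floor on both array types, and testis was higher by 6.95 (standard error 0.0541, adjusted p = 8.39e-09) and 5.89 (standard error 0.0218, adjusted p = 2.24e-09), the largest differences of any collagen gene in testis on either array type. The low calls of COL4A6 in the other 4 sources do not set these sources apart from each other.

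COL4A3 and COL4A4 encode chains of the network known from the kidney glomerulus. COL4A4 read 4.05 and 4.17 in testis, against 3.07 and 3.10 in fibroblasts, 3.27 and 3.24 in pancreas, 3.01 and 3.00 in thymus and 2.99 and 3.04 in cortex on rhesus arrays. On human arrays it read 4.51 and 4.44 in testis, against 2.65 and 2.67 in fibroblasts, 2.73 and 2.75 in pancreas, 2.62 and 2.62 in thymus and 2.63 and 2.66 in cortex. The testis arrays lay above all other arrays on both types, and testis was called higher by 1.02 (standard error 0.0365, adjusted p = 2.27e-06) and 1.81 (standard error 0.0212, adjusted p = 1.18e-07), but on rhesus arrays it was not called above pancreas, and without testis replicate 2 the rhesus difference was 0.96 and was not called. That call also ended with quantile normalization (0.87) and with spiked controls subtracted (0.97), and the human one with the mean over its probe sets (0.57). COL4A3 lay near the floor in all 5 sources on rhesus arrays. At its brightest human probe set no source mean passed 3.37, and at another the testis mean was 3.40, with no source called at either.

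**Figure D2:**
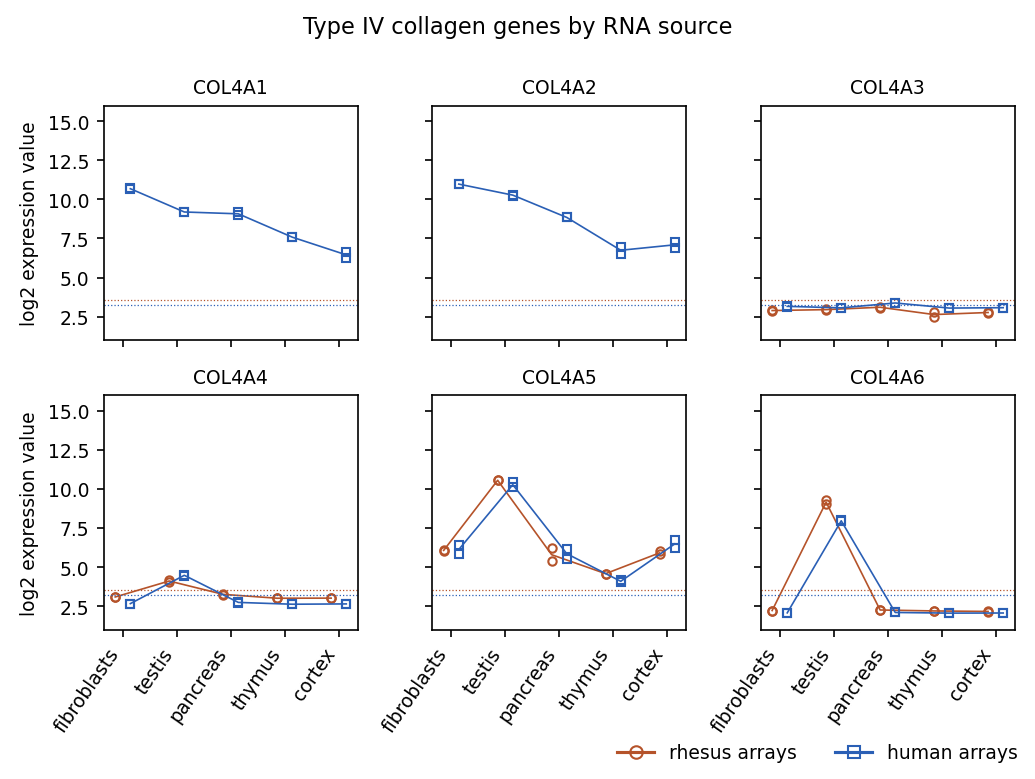
Log2 expression values of the 6 type IV collagen genes (y axis) in the 5 sources (x axis), drawn as circles for rhesus arrays and squares for human arrays, with lines through the means of 2 arrays and dotted floor lines. COL4A1 and COL4A2 (human arrays alone) are highest in fibroblasts, COL4A5 and COL4A6 in testis, and COL4A3 has no mean over 3.37.

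All 3 type VI genes on both array types were called higher in fibroblasts and in testis and lower in cortex. Type VI collagen forms beaded filaments around cells, from the chains of COL6A1, COL6A2 and COL6A3. COL6A1 read 12.53 and 12.55 in fibroblasts, against 11.38 and 11.47 in testis, 9.19 and 9.24 in pancreas, 7.88 and 7.81 in thymus and 4.47 and 4.64 in cortex on rhesus arrays, and 9.91 and 9.84 in fibroblasts, against 7.63 and 8.17 in testis, 6.30 and 5.80 in pancreas, 4.71 and 4.84 in thymus and 3.20 and 3.53 in cortex on human arrays. Arrays of different sources did not overlap on either type, in the same order as for COL1A2, and fibroblasts were higher by 4.28 (standard error 0.0518, adjusted p = 2.46e-08) and 4.35 (standard error 0.188, adjusted p = 1.32e-05). For COL6A2 the rhesus values were 11.56 and 11.54 in fibroblasts, against 9.49 and 9.56 in testis, 6.35 and 7.25 in pancreas, 6.11 and 6.07 in thymus and 3.42 and 4.40 in cortex. The human values were 10.13 and 10.08 in fibroblasts, against 7.74 and 7.99 in testis, 4.77 and 5.17 in pancreas, 3.80 and 3.82 in thymus and 3.32 and 2.94 in cortex. Fibroblasts and testis again stood above the rest. Fibroblasts were higher than the mean of the other 4 by 4.97 (standard error 0.302, adjusted p = 1.9e-05) and 5.16 (standard error 0.142, adjusted p = 2.05e-06). The rhesus pairs of pancreas and of cortex arrays were spread widely.

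COL6A3 read 11.24 and 11.22 in fibroblasts, against 10.24 and 10.18 in testis, 9.45 and 9.52 in pancreas, 7.40 and 7.49 in thymus and 3.01 and 2.48 in cortex on rhesus arrays, and 10.98 and 11.05 in fibroblasts, against 10.03 and 9.98 in testis, 8.84 and 8.97 in pancreas, 7.37 and 7.43 in thymus and 2.83 and 2.84 in cortex on human arrays. Cortex lay near the floor on both types while every other source was well above it, and pancreas was called higher, by 1.58 and 1.10, as were fibroblasts, by 3.76 (standard error 0.125, adjusted p = 1.22e-06) and 3.73 (standard error 0.0402, adjusted p = 5.39e-08). COL6A5 and COL6A6 encode further type VI chains. At their brightest human probe sets both lay near the floor in all 5 sources, but the second probe set of COL6A6 had a mean of 4.15 in testis and was called higher there, by 2.04. With the mean over its probe sets, human calls of COL6A1 ended in testis, at 0.39, in cortex, at -0.90, and in thymus, at -0.64.

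COL7A1 encodes the anchoring fibrils that fasten the epidermis to the dermis. It read 11.48 and 11.64 in fibroblasts, against 7.79 and 7.62 in testis, 3.62 and 3.85 in pancreas, 4.26 and 4.28 in thymus and 4.35 and 4.04 in cortex on rhesus arrays, and 7.58 and 7.59 in fibroblasts, against 5.59 and 5.50 in testis, 5.31 and 5.25 in pancreas, 4.99 and 4.75 in thymus and 5.18 and 5.28 in cortex on human arrays. Fibroblasts stood above every other source on both types, by 6.58 (standard error 0.104, adjusted p = 5.99e-08) and 2.35 (standard error 0.0667, adjusted p = 2.29e-06) against the mean of the other 4. Testis was called higher on rhesus arrays alone, at 1.76 against -0.20 on human arrays. At the second probe sets of COL7A1 fibroblasts were called higher too, by 6.05 on rhesus and 4.93 on human arrays. Testis was not called at these, at -0.99 and -0.92, and its rhesus mean of 3.20 lay near the floor. Of the network-forming genes, COL8A1, a component of the layer under endothelia, read 11.03 and 10.87 in fibroblasts, against 3.45 and 3.38 in testis, 3.54 and 3.50 in pancreas, 2.52 and 3.25 in thymus and 3.42 and 3.43 in cortex on human arrays. It was thus high in fibroblasts and at or close to the floor elsewhere, with a difference of 7.64 (standard error 0.175, adjusted p = 9.81e-07). COL8A2 and the growth plate cartilage gene COL10A1 were not called in any source.

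Fibril-associated collagens sit on the surface of fibrils. On both array types 4 of 9 were higher in testis, against 8.31% of all genes, and 3 of 9 in fibroblasts, against 11.2%. COL12A1, which binds type I fibrils in dense connective tissue, read 12.54 and 12.41 in fibroblasts, against 7.96 and 7.91 in testis, 6.89 and 6.77 in pancreas, 5.65 and 5.85 in thymus and 5.98 and 6.08 in cortex on rhesus arrays. The human arrays gave 9.69 and 9.25 in fibroblasts, against 5.31 and 4.72 in testis, 3.59 and 4.01 in pancreas, 2.94 and 2.86 in thymus and 3.31 and 3.33 in cortex. Fibroblasts were far above all other arrays. They were higher than the mean of the other 4 by 5.83 (standard error 0.068, adjusted p = 2.16e-08) and 5.71 (standard error 0.196, adjusted p = 5.13e-06). Testis came second without being called, with fibroblasts above it by 4.54 and 4.45.

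COL16A1, found in fibrillar matrix and near basement membranes, read 10.86 and 10.81 in fibroblasts, against 9.37 and 9.45 in testis, 5.82 and 5.78 in pancreas, 5.56 and 5.74 in thymus and 5.69 and 5.84 in cortex on rhesus arrays, and 10.86 and 10.91 in fibroblasts, against 9.11 and 9.25 in testis, 5.92 and 5.92 in pancreas, 5.84 and 5.99 in thymus and 6.17 and 6.23 in cortex on human arrays. Fibroblasts and testis stood apart from the other 3 sources, which were not called apart from each other, with fibroblasts higher by 4.18 (standard error 0.0613, adjusted p = 4.62e-08) and 4.08 (standard error 0.0503, adjusted p = 9.23e-08) and testis by 2.40 and 1.95. COL21A1, known from blood vessel walls, read 7.70 and 7.75 in fibroblasts, against 5.89 and 5.83 in testis, 4.05 and 3.68 in pancreas, 3.07 and 3.14 in thymus and 3.29 and 3.13 in cortex on rhesus arrays. On human arrays it read 7.52 and 6.40 in fibroblasts, against 4.69 and 4.95 in testis, 2.72 and 2.77 in pancreas, 2.70 and 2.66 in thymus and 2.69 and 2.76 in cortex. Fibroblasts were again first and testis next, with differences of 3.72 (standard error 0.0948, adjusted p = 3.87e-07) and 3.72 (standard error 0.267, adjusted p = 0.000125) for fibroblasts, although the human fibroblast pair was spread by over 1 log2 unit. The testis difference was 1.39 on rhesus and 1.04 on human arrays. The human call ended without testis replicate 3 or 4 (adjusted p = 0.0852 and 0.158), thymus replicate 3 (0.0503), fibroblasts replicate 4 (difference 0.90) or the pancreas arrays (difference 0.70), and the cortex call ended without cortex replicate 3 (0.0527).

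COL9A1, COL9A2 and COL9A3 encode type IX collagen, which coats the type II fibrils of cartilage. COL9A1 read 9.48 and 9.42 in testis, against 7.68 and 7.87 in pancreas, 3.73 and 3.23 in fibroblasts, 3.45 and 2.31 in thymus and 6.70 and 6.89 in cortex on rhesus arrays. The human values were 4.20 and 4.30 in testis, against 4.49 and 4.36 in pancreas, 2.73 and 2.21 in fibroblasts, 2.86 and 2.85 in thymus and 2.95 and 2.97 in cortex. Testis and pancreas were called higher on both types, testis by 4.22 (standard error 0.287, adjusted p = 4e-05) and 1.07 (standard error 0.127, adjusted p = 0.00148) and pancreas by 2.12 and 1.29, and fibroblasts were called lower and lay near the floor. The human calls of COL9A1 were the weaker ones. In pancreas the human call ended with spiked controls subtracted, at 0.17, and with the mean over its probe sets, at 0.68. In testis it ended with quantile normalization, at 0.93, and with the mean over its probe sets, at 0.50. In fibroblasts it ended without replicate 4, at -0.89, without the pancreas arrays, also at -0.89, with spiked controls subtracted, at -0.46, and with the mean over its probe sets, at -0.55. COL9A3 was called higher in testis on rhesus arrays, by 2.95, and COL9A2 in cortex, by 1.19, but both lay near the floor in all 5 sources on human arrays.

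COL14A1, whose product binds type I fibrils and decorin, read 9.54 and 9.35 in testis, against 9.05 and 9.08 in pancreas, 2.90 and 2.90 in fibroblasts, 6.45 and 6.31 in thymus and 3.63 and 3.95 in cortex on rhesus arrays. On human arrays it read 3.69 and 4.13 in testis, against 3.32 and 2.76 in pancreas, 2.72 and 2.73 in fibroblasts, 2.71 and 2.68 in thymus and 2.71 and 2.72 in cortex. Testis was called higher on both array types, by 3.92 (standard error 0.0929, adjusted p = 4.32e-07) and 1.12 (standard error 0.164, adjusted p = 0.00355), pancreas on rhesus arrays alone, by 3.44, and only testis had a mean above the floor on human arrays. The second brightest of its 4 rhesus probe sets had means of 5.77 in testis, 4.16 in pancreas, 6.77 in thymus, 5.01 in fibroblasts and 6.93 in cortex, with cortex called higher and pancreas lower. The human testis call ended without testis replicate 4, at 0.90, and both testis calls ended with the mean over its probe sets, at 0.90 on rhesus and 0.22 on human arrays. COL19A1 and COL20A1 were not called in any source on either array type, nor was COL22A1 on human arrays.

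**Figure D3:**
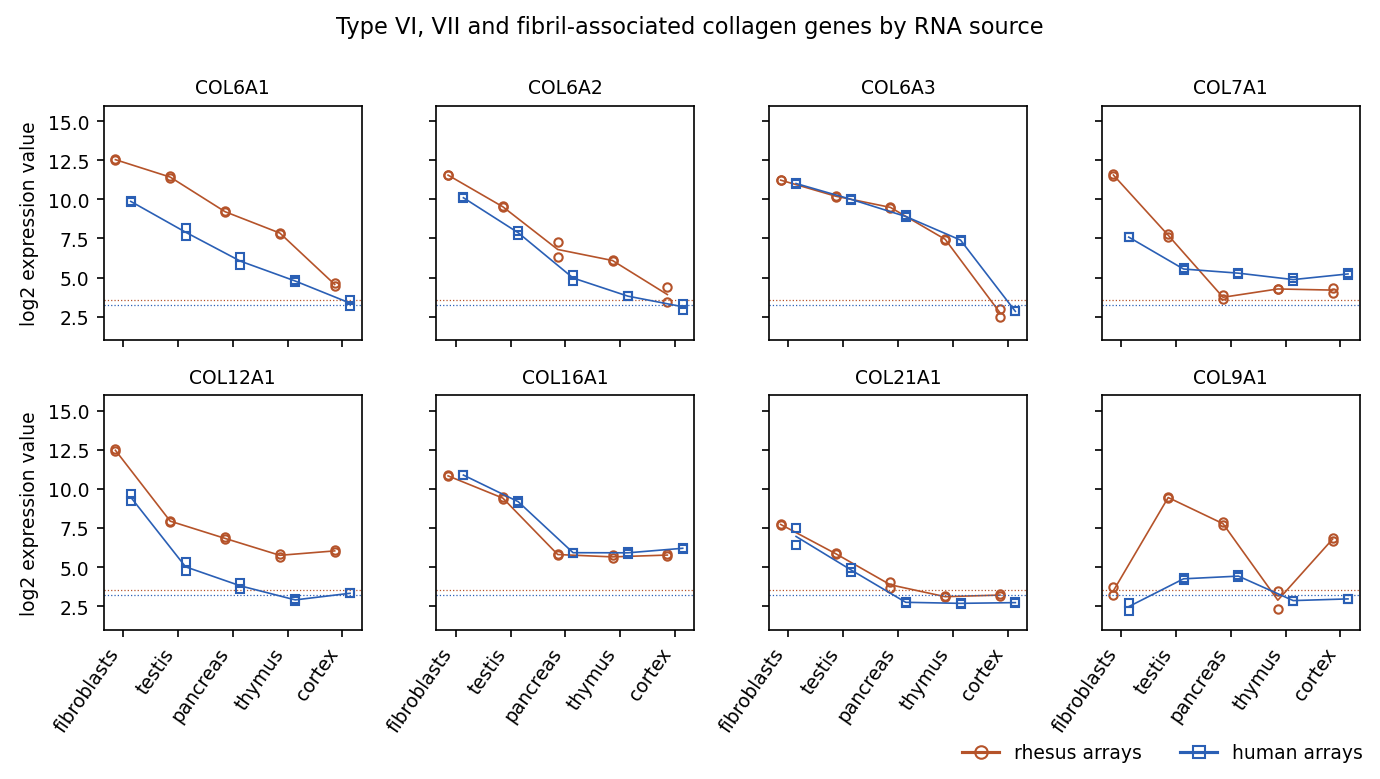
Log2 expression values of the type VI genes, COL7A1 and 4 fibril-associated genes (y axis) in the 5 sources (x axis), with circles for rhesus arrays, squares for human arrays, lines through the means of 2 arrays and dotted floor lines. Fibroblasts are first and testis second on both array types for every gene shown except COL9A1, which is low in fibroblasts.

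The 2 multiplexin genes gave different profiles at different probe sets. COL18A1 encodes a basement membrane collagen that releases endostatin. Its brightest rhesus probe set read 10.84 and 10.93 in cortex, against 5.59 and 5.74 in fibroblasts, 4.55 and 4.71 in testis, 4.17 and 4.08 in pancreas and 4.17 and 4.24 in thymus. The brightest human probe set read 4.85 and 5.85 in testis, against 5.51 and 4.93 in pancreas, 3.26 and 3.07 in fibroblasts, 3.36 and 3.12 in thymus and 2.43 and 3.15 in cortex. Cortex was called higher on rhesus arrays, by 6.23 (standard error 0.0631, adjusted p = 4.58e-09), and lower on human arrays, at -1.45 (standard error 0.322, adjusted p = 0.0186), and pancreas and testis were called lower on rhesus and higher on human arrays. The second rhesus probe set of COL18A1, with nearly the same mean over all arrays (5.81 against 5.90), had means of 8.10 in testis, 6.97 in pancreas, 5.25 in fibroblasts, 4.83 in thymus and 3.89 in cortex, with testis and pancreas called higher and cortex lower. Whether the brightest rhesus probe set reads COL18A1 transcripts was not tested.

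COL15A1 encodes a collagen of the zone between basement membranes and fibrils. On human arrays it read 10.42 and 10.47 in testis, against 5.75 and 5.47 in fibroblasts, 6.93 and 6.79 in pancreas, 5.07 and 5.22 in thymus and 3.56 and 4.87 in cortex. Testis was thus far above every other source. It was higher than the mean of the other 4 by 4.99 (standard error 0.313, adjusted p = 9.36e-05) and higher than pancreas, the next source, by 3.59. Cortex was lowest. The brightest rhesus probe set had source means between 6.51 and 7.25 and was not called in any source, but the second one, whose mean over all arrays was 6.67 against 6.92, had 11.29 in testis, 7.32 in pancreas, 6.09 in fibroblasts, 5.20 in thymus and 3.44 in cortex. Read at the brightest probe set, neither multiplexin gene was called the same way on both array types in any source. Among the transmembrane genes, COL13A1 read 7.68 and 7.47 in testis on rhesus arrays, against 4.19 in the mean of the other 4, and was called there, while its human source means lay between 3.99 and 4.07. The third human probe set of COL13A1 had a mean of 4.71 in testis and was called higher there as well, by 1.36. COL25A1 and COL23A1 were not called in any source. Of the 2 other genes, COL26A1 was called higher in pancreas on rhesus arrays alone, by 1.23, from arrays of 5.39 and 4.11, and COL28A1 was not called.

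**Figure D4:**
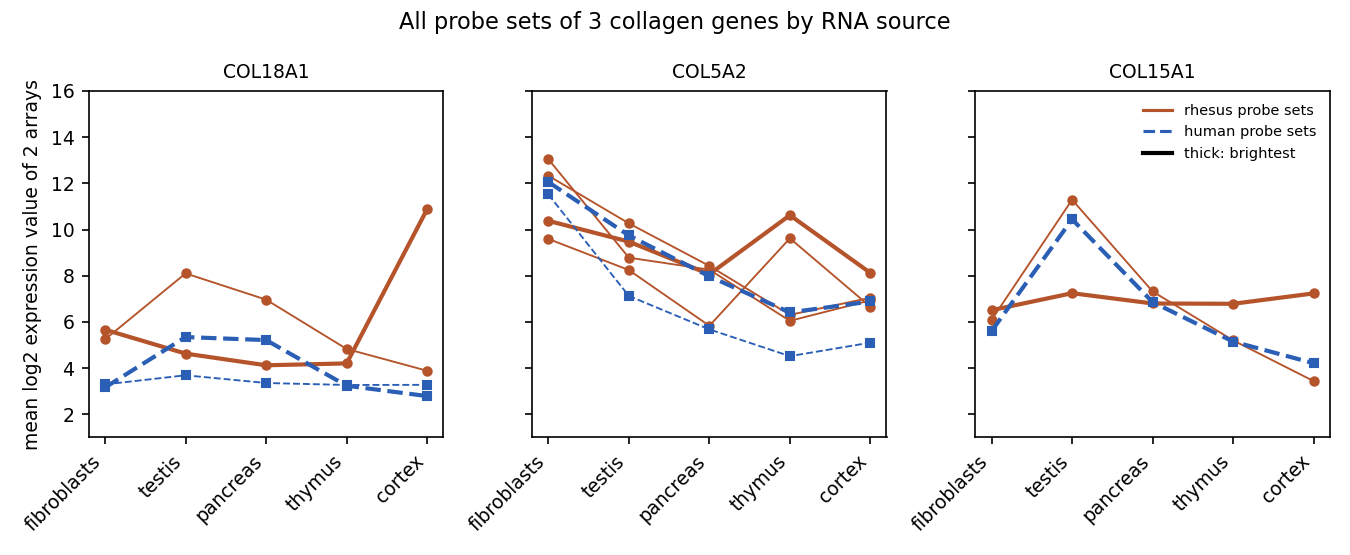
Mean log2 expression value of 2 arrays (y axis) in the 5 sources (x axis) for every probe set of COL18A1, COL5A2 and COL15A1, with solid lines for rhesus and dashed lines for human probe sets and a thick line for the brightest of each array type. The brightest rhesus probe set of COL18A1 reaches 10.88 in cortex where the second one reads 3.89, and 2 of 4 rhesus probe sets of COL5A2 are high in thymus, at 10.62 and 9.62.

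The classes were set side by side by source. Beside the 11.2% of all genes higher in fibroblasts and the 8.31% higher in testis, fibrillar genes were higher in fibroblasts for 5 of 10 and in testis for 3 of 10, and type VI genes in both for 3 of 3. Of the 4 basement membrane genes on both array types, 0 were higher in fibroblasts and 3 in testis, a count without COL4A1 and COL4A2, which were higher in fibroblasts on human arrays and were not read on rhesus arrays. The differences between classes were not tested. The median difference over the 35 genes in testis was 0.72 on rhesus and 1.04 on human arrays, against -0.07 and -0.06 over all genes on both. In fibroblasts it was 0.03 and 0.00, against 0.02 and 0.00, and 20 of the 35 genes there were not called the same way on both array types. In thymus the median was -1.10 and -0.60, against -0.07 and -0.05, in cortex -0.19 and -0.48, against -0.12 and -0.05, and in pancreas -0.05 and 0.06, against -0.16 and -0.03. Levels near the floor in all 5 sources were found for 7 of 35 genes on rhesus arrays and 9 of 43 on human arrays.

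**Figure D5:**
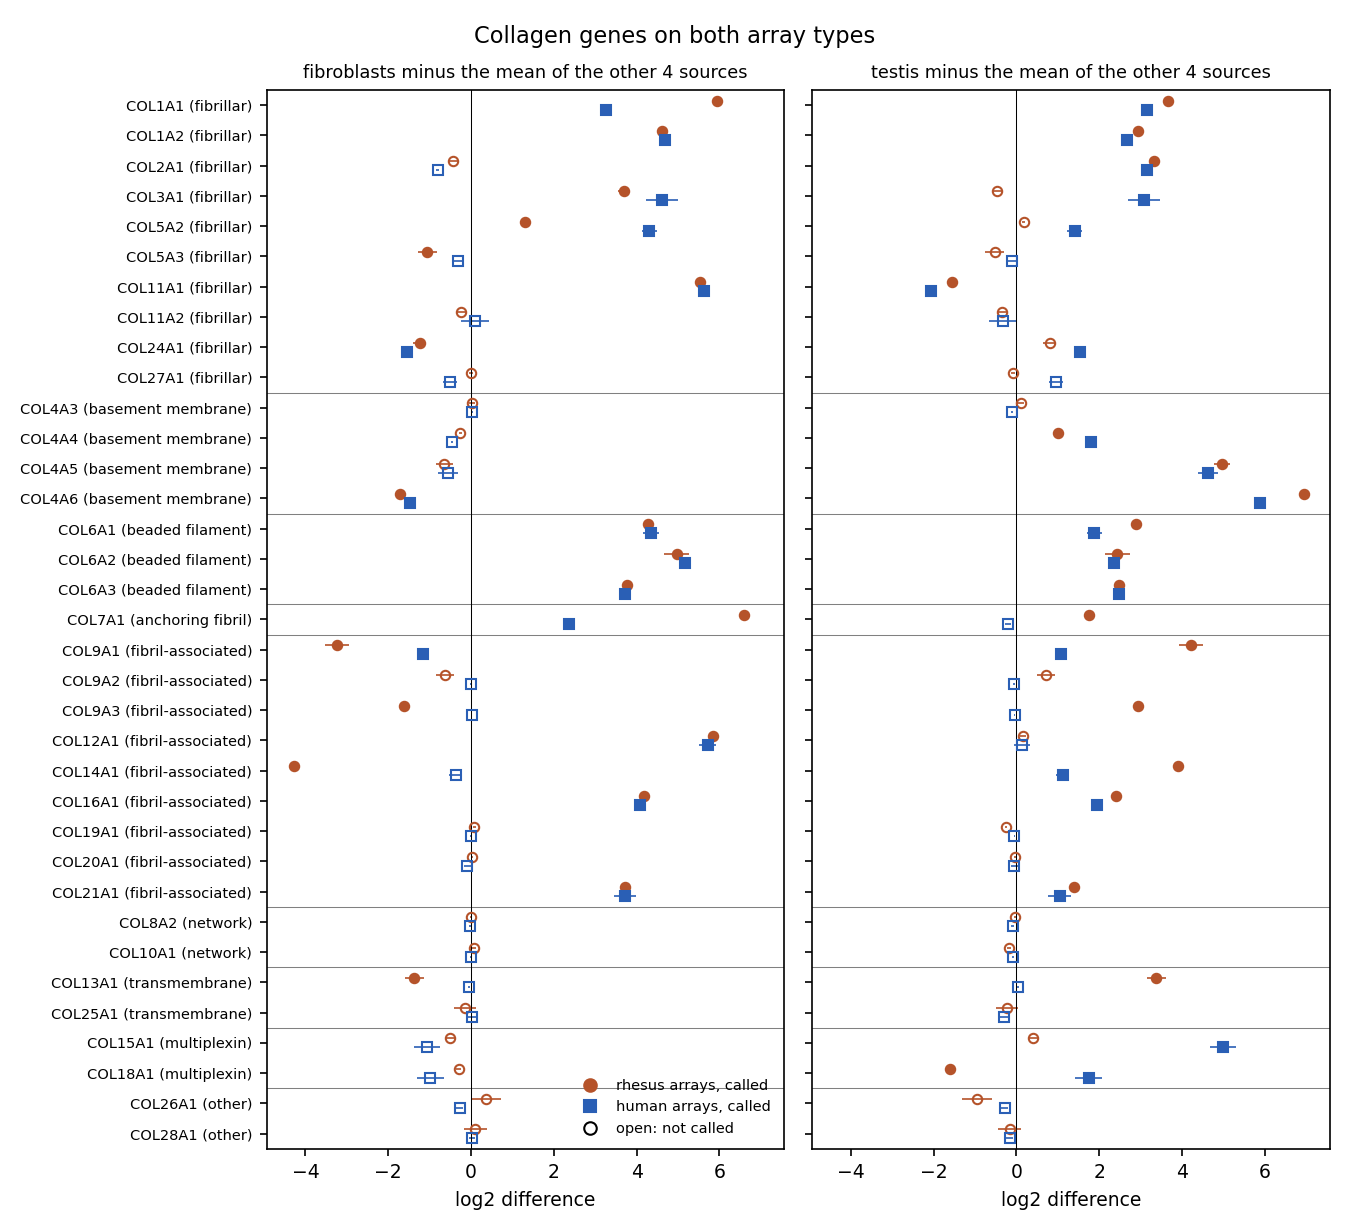
Log2 difference of fibroblasts (left) and testis (right) from the mean of the other 4 sources (x axis) for the 35 collagen genes on both array types (y axis, grouped by class), with circles for rhesus arrays, squares for human arrays, standard errors as bars and filled symbols for calls. In fibroblasts 5 fibrillar, 3 type VI and 3 fibril-associated genes and COL7A1 are called higher on both array types, while COL4A5 and COL4A6 lie far right in testis alone.

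Genes of collagen assembly were called higher mostly in fibroblasts. Of 15 genes of chain modification and folding on both array types, 10 were higher and 0 lower in fibroblasts, against 11.2% and 7.4% of all genes, with median differences of 2.87 and 2.45, against 0.02 and 0.00 over all genes. P4HA2, a subunit of the enzyme that hydroxylates proline in collagen, read 12.92 and 13.06 in fibroblasts on rhesus arrays, against 6.07 in the mean of the other 4, and SERPINH1, the collagen chaperone of the endoplasmic reticulum, read 12.25 and 12.41 against 6.64. SERPINH1 was higher in testis as well, by 2.53 on rhesus and 2.97 on human arrays, and PLOD2, a lysyl hydroxylase, in pancreas, by 1.63 and 1.25. In testis 2 of 15 were higher and 1 lower, in pancreas 2 were higher and 2 lower, in thymus 0 higher and 6 lower, and in cortex 0 higher and 9 lower. The shares of all genes higher and lower were 8.31% and 5.03% in testis, 3.92% and 12.5% in pancreas, 9.58% and 9.85% in thymus and 10.2% and 10.3% in cortex, and the testis and pancreas counts, of 1 or 2 genes each, are no result about the list.

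Genes of crosslinking and propeptide removal, which act on collagen outside the cell, were also called higher mostly in fibroblasts. All 4 crosslinking genes on both array types, LOX, LOXL1, LOXL2 and LOXL3, were higher in fibroblasts than in each other source, against 4.55% of all genes. In testis 0 of 4 were called higher, against 8.31%. LOXL2, a lysyl oxidase, read 10.19 and 10.26 in fibroblasts on rhesus arrays, against 4.69 and 5.59 in testis and 2.08 and 2.54 in cortex. Of 7 genes of propeptide removal, ADAMTS2, BMP1, PCOLCE and PCOLCE2 were higher in fibroblasts, against 11.2% of all genes. ADAMTS3 of the same list was higher in cortex, against 10.2%, and with PCOLCE2 lower in pancreas, against 12.5%. In testis 0 of 7 were higher, and with lists this short the testis counts are no result about either list. PCOLCE2 alone of the 7 was lower in testis, against 5.03% of all genes, and ADAMTS2, the procollagen N-proteinase, was called higher there on rhesus arrays alone, by 2.00.

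Partners of type IV collagen were called higher in fibroblasts and in testis, with LAMA2, LAMB1 and LAMB2 higher in both. Of 11 basement membrane partners on both array types, 6 were higher in fibroblasts (LAMA2, LAMB1, LAMB2, LAMC1, NID1 and PXDN), against 11.2% of all genes. In testis 5 were higher (LAMA1, LAMA2, LAMB1, LAMB2 and LAMC3), against 8.31%. Above each other source stood 2 of 11 in fibroblasts, against 4.55%, and 3 of 11 in testis, against 1.97%. LAMA1, a laminin chain gene, read 8.00 and 7.97 in testis on rhesus arrays and 5.35 and 5.94 on human arrays, against 2.84 and 2.27 in the mean of the other 4, and the other 4 sources lay near the floor on both array types, as they did for COL4A6. Of 6 fibril-binding proteoglycan genes, DCN, LUM and ASPN were higher and FMOD lower in fibroblasts, and DCN and OGN were higher and ASPN lower in testis. Of 5 collagen receptor genes ITGA2, ITGB1 and DDR2 were higher in fibroblasts and ITGB1 in testis. Shares of all genes higher and lower were 11.2% and 7.4% in fibroblasts and 8.31% and 5.03% in testis. Counts of 1 or 2 genes are no result about these 2 lists.

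The labelled sources carried their own marker genes. Of the markers on both array types, 4 of 4 for cortex, 4 of 4 for pancreas, 4 of 4 for thymus, 4 of 5 for testis and 3 of 4 for fibroblasts were higher in their own source, and THY1, listed for fibroblasts, was higher in cortex instead. Shares of all genes higher were 10.2% in cortex, 3.92% in pancreas, 9.58% in thymus, 8.31% in testis and 11.2% in fibroblasts. In fibroblasts 7.4% of all genes were lower. Some markers of other collagen-making cells were called as well, and their part in the collagen results was not tested. Counts of 1 or 2 genes are no result about the lists of these other cells. In testis, MYH11, the heavy chain of smooth muscle myosin, was higher as 1 of 4 smooth muscle genes on both array types, while in fibroblasts TAGLN and CNN1 of the same 4 were higher and MYH11 lower. SOX9 and INHBB, the 2 Sertoli cell markers on both array types, were higher in testis, and SOX9 was higher in pancreas too. The epithelial markers EPCAM and KRT8 were higher in testis and in pancreas, as 2 of 4, with list means of 6.08 to 6.17 in testis and 7.01 to 7.05 in pancreas on rhesus arrays, against 3.81 to 4.61 in the other sources. The mean level of the smooth muscle list was 7.84 to 7.87 in testis on rhesus arrays, against 7.49 to 7.50 in fibroblasts, 5.94 to 6.02 in pancreas, 4.61 to 4.65 in thymus and 4.70 to 4.78 in cortex. In testis CDH5 was higher as 1 of 7 endothelial markers, with median differences of the list of 0.14 on rhesus and -0.14 on human arrays. In pancreas CDH5 and EMCN were higher, with list means of 6.02 to 6.25 on rhesus arrays, against 4.87 to 4.96 in testis, 4.63 in both thymus arrays, 4.42 to 4.45 in cortex and 3.27 to 3.32 in fibroblasts, where PECAM1, CDH5 and EMCN were lower.

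Pancreas stood apart on some technical measures. Its replicate pairs had SDs of 0.28 on rhesus and 0.22 on human arrays, against 0.14 to 0.17 for the other sources. Spiked controls averaged 11.2 on rhesus and 11.4 on human arrays in pancreas, against 9.69 to 10.5 in the others. The 3' minus 5' level of actin was 4.58 on rhesus arrays, against 2.07 to 2.66, but 2.40 on human arrays, against 2.03 to 2.47. For GAPDH it was highest in pancreas on both types, at 2.77 against 1.30 to 1.97 on rhesus arrays and 1.31 against 0.12 to 0.50 on human arrays. Pancreas also enters the mean of the other 4 for each other source, and the part of these measures in any call was not tested. With the spiked controls subtracted, COL1A2 in pancreas differed by -0.0022 on rhesus and -0.07 on human arrays and COL6A3 by 0.49 and -0.02, so that neither was called, and the human call of COL9A1 was lost as well, at 0.17. Without pancreas replicate 4 the human difference of COL1A2 was 0.96 and was not called, and the dimmest human probe set of COL1A2 was called lower in pancreas, at -1.87. Without the pancreas arrays, fibroblasts had 11 genes higher and the same 9 genes above each other source, and testis had 12 higher and 6 above each other source, which were COL2A1, COL4A4, COL4A5, COL4A6, COL9A1 and COL14A1.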

How the data were processed

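RNA of 5 sources was read on 10 rhesus and 10 human arrays. Log2 expression values of probe sets were deposited by the authors in a table for each array type, made with RMA as the submitters' notes say. The study's methods describe quantile normalization of probe intensities within each pair of replicate arrays, and whether that step entered the deposited log2 values, like the RMA version and the arrays it was run on together, is not given in the sources used here, so the tables were not tested against each other. Sources came from the sample labels and symbols from the array annotation, and 56 of 60 rhesus collagen probe sets were matched by gene number to the gene table of rhesus assembly T2T-MMU8v2.0, which changed 0 symbols. Genomic positions were used only to find neighbouring collagen genes in that table, and sequences were not used. Besides the type IV pairs, COL3A1 and COL5A2, COL6A1 and COL6A2, and COL6A5 and COL6A6 had 0 protein-coding genes between them.

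limma 3.58.1 (lmFit and eBayes, R 4.3.3) was fitted to each array type (52766 rhesus or 54613 human probe sets), with Benjamini-Hochberg adjustment over all of them, and was tested on simulated data. Counts needed a call in 1 direction on both array types. Values on every array are given for members so called in at least 1 source. The members and gene lists were chosen with earlier results of these data known. Alternatives were other scalings, no minimum difference, least squares without moderation, leaving out dim probe sets or each array, a replicate block, and averaging the probe sets of each gene. Leaving out pancreas was added after seeing the data. The number of arrays limits precision.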

Additional observations from a re-analysis of the deposited data

Results flagged for a closer look

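COL18A1 and COL5A2 were called in opposite directions on the 2 array types, and the difference between array types was not tested. COL18A1 differed from the mean of the other 4 sources by 6.23 on rhesus and -1.45 on human arrays in cerebral cortex, by -2.22 and 1.58 in pancreas and by -1.59 and 1.74 in testis. COL5A2 in thymus differed by 1.61 on rhesus and -2.75 on human arrays. For both genes other rhesus probe sets had the direction of the human arrays, with COL18A1 at -2.40 in cortex, 1.45 in pancreas and 2.87 in testis at its second rhesus probe set. With 2 arrays per source and type, single arrays could not be tested as outliers.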

How the results depend on the processing

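Behind the 62 calls shared by both array types lay 124 gene and source differences. All 124 kept direction and call with dim probe sets left out, with least squares and with the replicate block. Taking away the minimum difference only loosens the rule and could not end a call, so it does not test them. Leaving out dim probe sets removes only those near the floor in every source, so it is a weak test. Subtracting array medians ended 3 calls, quantile normalization 4, spiked controls 12 and the mean of all probe sets 16. The turned ones were COL1A2 in pancreas, at -0.0022 on rhesus and -0.067 on human arrays with spiked controls and -0.061 on human arrays over all probe sets, and COL6A3 in pancreas at -0.020 on human arrays with spiked controls. Spiked controls moved the median of all genes by 0.78 and 0.70 in fibroblasts and by -1.09 and -1.11 in pancreas, and array medians moved it by -0.22 and -0.13 in pancreas (rhesus and human).

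With spiked controls subtracted, collagen genes lower in fibroblasts numbered 0, those higher in pancreas 0 and those lower in pancreas 17. With no minimum difference, 5 were lower in fibroblasts, 10 higher, 11 lower and 2 above each other source in pancreas, and 3 lower and 5 above each other source in testis. With the mean of all probe sets, 1 was higher in cortex, 1 lower in fibroblasts and 1 higher in pancreas, and 5 were higher in pancreas with quantile normalization and 1 with array medians. Without the pancreas arrays, 1 was higher in cortex and 6 stood above each other source in testis. The causes were not tested.

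Leaving out 1 array gave 12 higher, 2 to 3 lower and 8 to 10 above each other source in fibroblasts, 11 to 14 higher, 1 lower and 3 above in testis, 2 higher, 10 to 11 lower and 1 above in cortex, 3 higher, 6 to 7 lower and 0 above in pancreas and 0 higher, 10 to 12 lower and 0 above in thymus. It ended 11 of 1240 single calls, among them COL7A1 in thymus on human arrays, at -0.92 without thymus replicate 4. Same-numbered arrays of different sources did not deviate together, with correlations of -0.025 to 0.010 on rhesus and -0.034 to 0.018 on human arrays, so the replicate numbers were not taken as pairs. With the replicate block, fibroblasts had 12 and testis 13 genes higher.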
